A study of Mus musculus with 28 samples.

Results

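The 5 long noncoding RNAs, Meg3, Kcnq1ot1, Malat1, Neat1 and H19, were followed in cells sorted from mouse thyroid and salivary gland. They were chosen by name, and each was found through its Ensembl identifier. This choice, and that of the gene lists used below, was made with earlier results of these data known. These are 5 of the 47643 gene rows of every count table, of which 17068 rows had at least 1 read. All animals were H2B-GFP mice, whose histones carry a green fluorescent label that is thinned out at each cell division; the study's title names quiescent cells of the thyroid. Freshly sorted thyroid cells came as a GFP+ and a GFP- fraction at 3 months (4 libraries each), 6 months (4 each) and 9 months (3 each). Salivary gland cells came as the same fractions at 9 months (3 libraries each). The promoter driving H2B-GFP and the number of animals behind a library are not given in the sources used here. The p-values therefore rest on the spread among these samples alone, and that spread may be technical. Polyadenylated RNA was read with a 3' mRNA sequencing kit, which counts tags near the RNA's 3' end, and a level is given in CPM, the usual scaling of a gene's reads to the library's reads in genes.

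Long noncoding RNAs work as RNA, and many stay in the nucleus. Meg3, Kcnq1ot1 and H19 are imprinted, so that only 1 parental copy is transcribed. Meg3 is read from the maternal chromosome of the Dlk1-Dio3 domain, Kcnq1ot1 from the paternal chromosome, where it silences neighbours in cis, and H19 from the maternal chromosome beside Igf2. Malat1 lies in nuclear speckles, the stores of splicing factors, and Neat1 is the scaffold of paraspeckles.

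Promoter sequences are shown for the 3 RNAs that passed the filter for testing, since their levels are compared below. RefSeq lists a promoter window of 300 bases (250 before and 50 after the start, build GRCm38.p6) for these 3. Neat1 and H19 are named only. The window of Meg3, the upstream one of 2 listed starts, lies at chr12:109540746-109541045 on the plus strand. That of Kcnq1ot1 lies at chr7:143296498-143296797 and that of Malat1 at chr19:5802623-5802922, both on the minus strand. Capitals mark matches, on either strand, to the CCAAT box, the cyclic AMP response element TGACGTCA, the TATA motif TATAAA or the GC box GGGCGG.
Meg3: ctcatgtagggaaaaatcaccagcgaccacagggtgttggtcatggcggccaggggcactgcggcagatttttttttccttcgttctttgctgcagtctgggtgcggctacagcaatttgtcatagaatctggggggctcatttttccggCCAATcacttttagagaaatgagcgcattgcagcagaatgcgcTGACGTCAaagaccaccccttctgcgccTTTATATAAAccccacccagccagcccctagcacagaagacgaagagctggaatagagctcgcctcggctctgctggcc
Kcnq1ot1: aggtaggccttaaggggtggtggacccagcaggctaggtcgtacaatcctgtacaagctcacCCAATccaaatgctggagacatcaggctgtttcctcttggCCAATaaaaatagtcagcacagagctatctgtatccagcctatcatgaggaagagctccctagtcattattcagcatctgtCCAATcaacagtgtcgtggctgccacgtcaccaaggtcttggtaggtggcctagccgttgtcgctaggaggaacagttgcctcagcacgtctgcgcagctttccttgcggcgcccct
Malat1: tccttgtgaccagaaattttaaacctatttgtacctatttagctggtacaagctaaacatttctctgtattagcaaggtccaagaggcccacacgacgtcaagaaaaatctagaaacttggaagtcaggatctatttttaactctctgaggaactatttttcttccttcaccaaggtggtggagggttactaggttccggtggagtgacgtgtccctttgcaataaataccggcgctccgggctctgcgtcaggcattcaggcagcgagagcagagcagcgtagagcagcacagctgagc
The Meg3 window held CCAAT starting at base -100 from the start, the cyclic AMP response element at -57, and the TATA motif on both strands in 1 overlapping stretch, at -29 and -25. The Kcnq1ot1 window held 3 CCAAT boxes, at -188, -148 and -67, and none of the other motifs. The Malat1 window held none of the 4. Among 32851 windows of the same length, 37.4% held the CCAAT box, 1.79% the cyclic AMP response element, 13.6% the TATA motif and 35.7% the GC box. CpG pairs numbered 13 in the Meg3 window, 9 in Kcnq1ot1 and 10 in Malat1, against a median of 7 over all windows. These matches describe the letters in a window and nothing about binding, and the alleles were not distinguished in these data.

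The A runs of the transcripts are shown because a 3' kit primes on runs of A. The longest annotated transcript (GENCODE vM21) of Kcnq1ot1 has 93092 bases and held 8 runs of at least 12 A, the longest of 41. That of Malat1, with 6983 bases, held 1 of 12. Those of Neat1, with 20771 bases, and H19, with 2286, held none. Of the 7040 annotated transcripts of at least 5000 bases, 19.7% held such a run. The longest run of Kcnq1ot1 and of Malat1 is given in capitals with 25 bases on either side.
Kcnq1ot1, bases 69540 to 69630: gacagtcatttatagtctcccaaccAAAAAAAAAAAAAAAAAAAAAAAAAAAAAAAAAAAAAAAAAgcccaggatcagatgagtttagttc
Malat1, bases 6649 to 6710: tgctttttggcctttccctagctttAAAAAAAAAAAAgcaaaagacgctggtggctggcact
The Malat1 run lies near the end of the annotated transcript. It is the known A-rich tract at which the mature RNA ends, with no added tail, and the tRNA-like mascRNA follows it. Where along a transcript the reads fell is not in the gene tables.

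Sequencing was shallow and uneven, with 507 to 209091 reads in genes per library and 2263832 in all. Fewer than 10000 reads were found in 6 libraries: 5 of thyroid (GFP- replicate 2 at 6 months, GFP- replicate 1 at 9 months, GFP+ replicates 1 and 2 at 3 months, GFP+ replicate 4 at 6 months) and salivary GFP+ replicate 1. In these, 52.9 to 85.8% of the reads in the tables were assigned to no gene. One read is worth 4.78 CPM in the deepest library and 1972 CPM in the shallowest, so a value of 0 in a shallow library says little. Gland labels were checked by markers: Tg, the thyroid hormone precursor, was at 386 to 7038 CPM in the pooled thyroid groups and at most 36.5 CPM in the salivary ones. Salivary acinar genes summed to at most 1038 CPM in a thyroid GFP- library and 5122 CPM in a GFP+ one, both at 3 months.

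Meg3 was higher in the GFP+ than in the GFP- fraction of the thyroid. At 3 months it was at 53.6, 55.0, 0 and 0 CPM in the 4 GFP- libraries and at 0, 0, 161 and 109 CPM in the 4 GFP+ libraries, where both zeros are libraries of fewer than 10000 reads. At 6 months it was at 0, 0, 9.57 and 0 CPM in GFP- and at 106, 275, 81.8 and 0 CPM in GFP+. At 9 months the 3 GFP- libraries were at 170.0 CPM (a single read in a shallow library), 37.7 and 38.4 CPM, and the GFP+ libraries were at 76.8, 188 and 430.2 CPM. The groups overlapped over all 22 libraries. Among the 17 thyroid libraries of at least 10000 reads they did not: the lowest of 8 GFP+ libraries had 76.8 CPM and the highest of 9 GFP- libraries 55.0 CPM. How many of all genes separate in this way was not counted, here or for the members below. In bulk libraries, more cells of a type and more RNA per cell cannot be told apart.

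Averaged over the 3 ages, Meg3 rose by 2.50 on the log2 scale (SE 0.50, 95% interval 1.52 to 3.48; adjusted p = 1.15e-05, edgeR quasi-likelihood test over 1900 genes). Kcnq1ot1, described next, rose by 1.84 (SE 0.51, 0.83 to 2.84; adjusted p = 0.00301, same test), and Malat1 had -0.20 (SE 0.46, -1.10 to 0.71; adjusted p = 0.861). Thus 2 of the 3 members tested passed, both higher, while 20.2% of all genes tested passed, 11.4% higher and 8.79% lower. That split of 216 higher and 167 lower genes was 192 and 66 by DESeq2 and 317 and 133 with library size alone. The filter on low counts asks for a CPM worth 10 reads at median depth, in as many libraries as the smallest group has. An RNA high in 1 fraction alone can thus pass. Kcnq1ot1 reached that level in GFP+ libraries only, as did Meg3 but for 1 read in a shallow GFP- library. Both calls in the mean over ages also held with no filter (adjusted p = 0.00212 for Meg3 and 0.0372 for Kcnq1ot1, edgeR). The median of all tested genes was -0.08, and 98.1% of them had a lower fold change than Meg3. Summed over libraries, Meg3 had 142 reads in GFP+ and 27 in GFP-, a ratio of their shares of 5.92 (exact 95% counting interval 3.90 to 9.30). Counting intervals here cover counting error only.

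**Figure D1:**
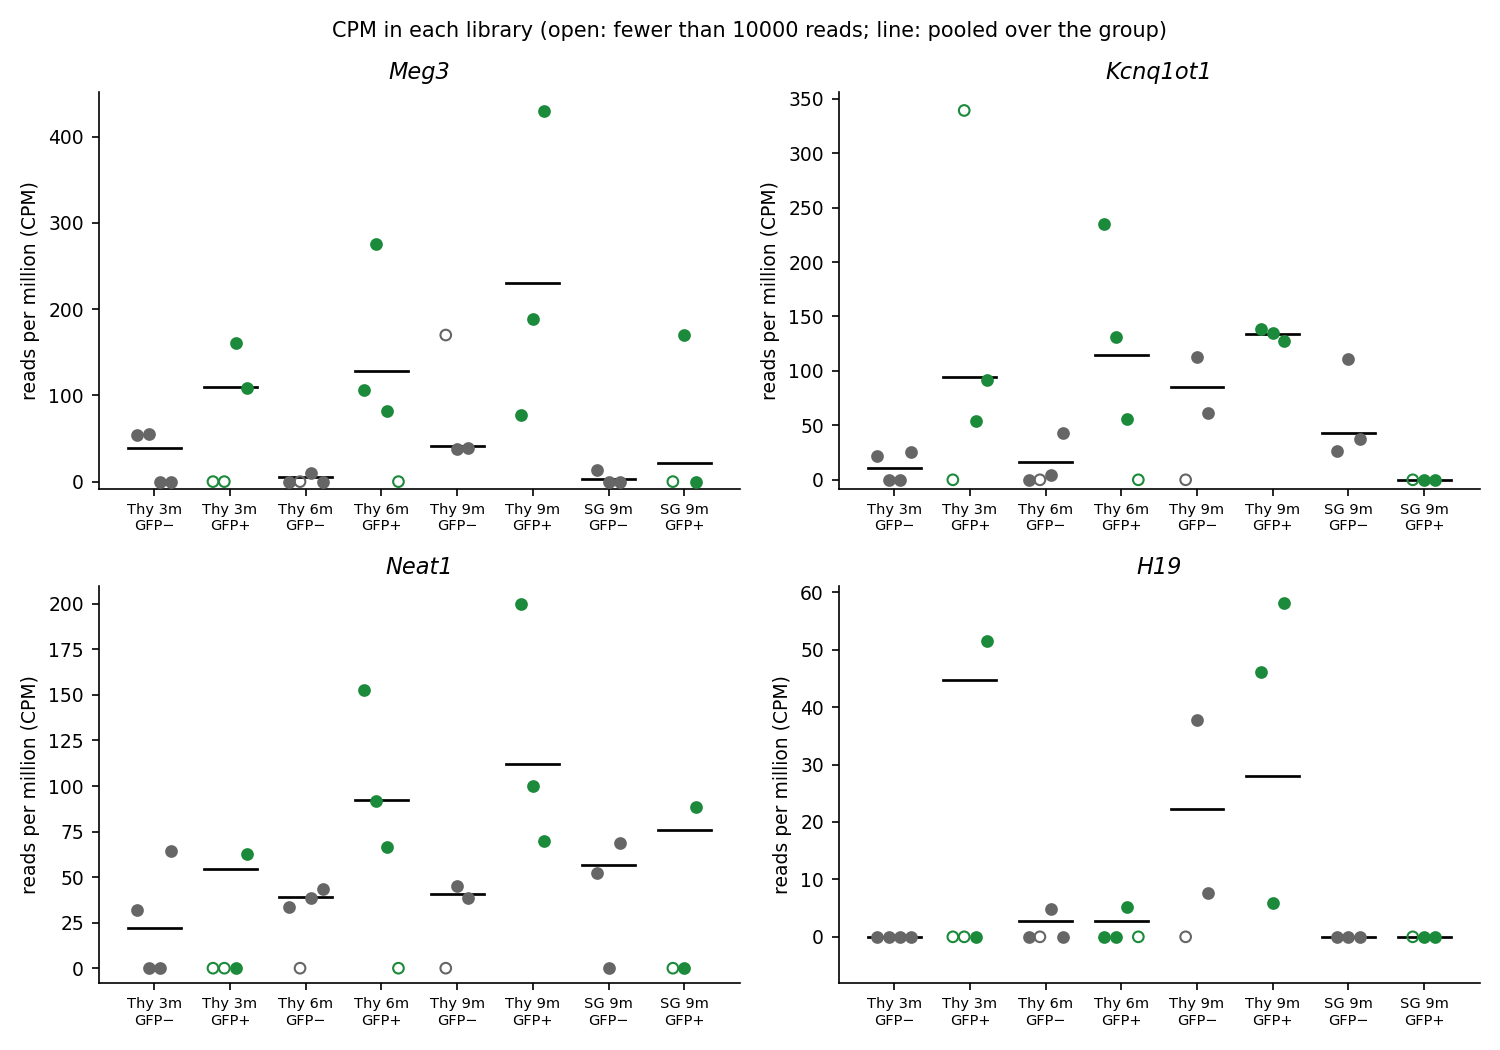
CPM of Meg3, Kcnq1ot1, Neat1 and H19 (vertical axes) in each of the 28 libraries, by gland (Thy thyroid, SG salivary gland), age in months (m) and fraction (green GFP+, grey GFP-). Open points are libraries of fewer than 10000 reads and black lines the pooled CPM of a group; Meg3 reaches 430.2 CPM in thyroid GFP+ cells at 9 months and H19 has no reads in salivary gland.

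By age, the Meg3 difference was 1.13 (SE 0.79, adjusted p = 0.442) at 3 months, 4.09 (SE 0.97, adjusted p = 0.00141) at 6 months and 2.28 (SE 0.79, adjusted p = 0.121) at 9 months, all by edgeR. Only that at 6 months passed, where 7.11% of all genes did and 5.26% were higher, and this call was lost with no filter (4.15, adjusted p = 0.0797, edgeR) and with a replicate block (3.28, adjusted p = 0.196). At 3 months 0 of 3 members passed against 9.74% of genes, and at 9 months 0 of 3 against 1.89%. At an unadjusted p under 0.05, 1 of 3 members passed at each of the latter ages, Kcnq1ot1 at 3 and Meg3 at 9 months, beside 407 and 169 of the 1900 genes. DESeq2 called 0 members at each age and 123, 53 and 15 genes at 3, 6 and 9 months, with adjusted p = 0.0593 for Meg3 at 6 months and no adjusted p for Meg3 and Kcnq1ot1 at 9 months. The fold at 6 months rests on 2 GFP- reads, both in replicate 3: without that library it was 6.44, and the pooled ratio was 23.1 (counting interval 6.05 to 196.6). The difference between ages was not past the threshold for any of the 3 members (adjusted p = 0.9999 for each, edgeR; 0.158% of genes passed; 0 members at an unadjusted p under 0.05 and 0 by DESeq2).

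Pooled Meg3 levels in GFP+ cells were 109 CPM at 3 months (counting interval 68.6 to 166), 129 CPM at 6 months (94.2 to 172) and 230.3 CPM at 9 months (180.8 to 289.1). In GFP- cells they were 38.6, 5.57 and 40.9 CPM. The intervals of 6 and 9 months in GFP+ do not overlap, but the libraries do: 1 of the 3 at 9 months lies below 3 of the 4 at 6 months. Change across ages did not pass for Meg3 in GFP+ (adjusted p = 0.9999; 1.58% of genes passed) or in GFP- (adjusted p = 0.404; 1.53% of genes passed). In GFP+, 0 of 3 members passed across ages, 0 at an unadjusted p under 0.05, where 139 of the 1900 genes lay. In GFP-, 0 of 3 passed and 1, Kcnq1ot1, had an unadjusted p under 0.05, as did 250 of the 1900 genes. DESeq2 called 0 members and 2 genes in each.

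Kcnq1ot1, the antisense RNA of the Kcnq1 locus, was also higher in thyroid GFP+ cells when the ages are averaged. At 3 months it was at 21.4, 0, 0 and 25.6 CPM in GFP- and at 0, 339, 53.7 and 91.5 CPM in GFP+, the 339 being 2 reads of a shallow library. At 6 months it was at 0, 0, 4.78 and 43.3 CPM in GFP- and at 235, 131, 56.3 and 0 CPM in GFP+. At 9 months it was at 0, 113 and 61.4 CPM in GFP- and at 138, 135 and 128 CPM in GFP+. At 9 months no GFP- library reached the GFP+ libraries, which lay between 128 and 138 CPM. The GFP- library at 0 had only 5884 reads in genes, and the one at 113 CPM held 15 reads of Kcnq1ot1. The share of all genes that separate alike was not counted, and the fitted difference at this age did not pass (adjusted p = 0.960, edgeR). At the younger ages the groups overlapped only through shallow GFP+ libraries with 0 reads.

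The fitted difference of Kcnq1ot1 was 2.47 (SE 0.99, adjusted p = 0.0958) at 3 months, 2.41 (SE 0.87, adjusted p = 0.0706) at 6 months and 0.63 (SE 0.79, adjusted p = 0.960) at 9 months, by edgeR. At 6 months it passed without GFP- replicate 4 (4.26, adjusted p = 0.0291, edgeR), and also without GFP+ replicate 3 or GFP+ replicate 4. Pooled ratios of GFP+ to GFP- were 8.57 (counting interval 2.85 to 34.6), 6.87 (2.90 to 19.8) and 1.56 (0.92 to 2.72). GFP- cells had 11.03, 16.7 and 85.6 CPM at 3, 6 and 9 months, while GFP+ cells had 94.5, 115 and 134 CPM. The change across ages in GFP- cells did not pass (adjusted p = 0.241, edgeR), and 15 of the 23 reads at 9 months came from replicate 2. Over all ages Kcnq1ot1 had 103 reads in GFP+ and 33 in GFP-, a ratio of 3.51 (2.35 to 5.37).

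**Figure D2:**
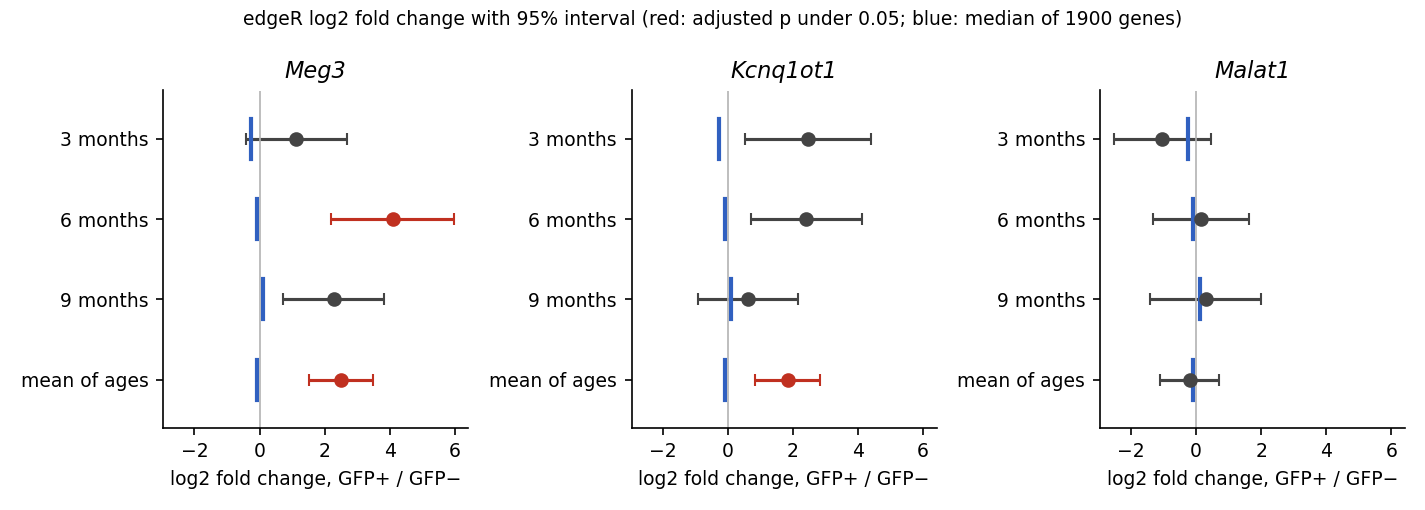
Fitted log2 fold change of GFP+ over GFP- thyroid cells (horizontal axis) with its 95% interval for Meg3, Kcnq1ot1 and Malat1 at each age and as the mean of ages (rows). Red points have an edgeR adjusted p under 0.05 and blue bars give the median of the 1900 genes tested; Meg3 is red at 6 months (4.09) and in the mean (2.50), Kcnq1ot1 in the mean (1.84), Malat1 nowhere.

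Strand use in counting is not given in the sources used here, so reads of Kcnq1ot1 and of a gene opposite it cannot be told apart. Kcnq1, the potassium channel gene it overlaps, was counted on its own row, with 15 reads in 6 thyroid GFP- libraries and 0 in GFP+. With GFP+ set at a limit of 3 reads, Kcnq1 was 4.44-fold lower there, a figure that leaves out the counting error of the 15 reads. The other overlapping rows of Kcnq1ot1, and those of Meg3 (a long noncoding RNA on the opposite strand, 2 microRNAs and 2 miscellaneous RNAs), had 0 reads in all 28 libraries.

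Neat1 did not pass the filter and was not tested. At 3 months it was at 32.2, 0, 0 and 64.1 CPM in GFP- and at 0, 0, 0 and 62.9 CPM in GFP+. At 6 months it was at 33.5, 0, 38.3 and 43.3 CPM in GFP- and at 153, 91.7, 66.5 and 0 CPM in GFP+; at 9 months at 0, 45.2 and 38.4 CPM against 199.7, 99.9 and 69.8 CPM. The 9-month fractions did not overlap, nor did those at 6 months among libraries of at least 10000 reads, while those at 3 months did. The share of all genes that separate alike was not counted. Summed over thyroid libraries, Neat1 had 80 reads in GFP+ and 33 in GFP-, a ratio of 2.73 (counting interval 1.80 to 4.23). Without the 5 shallow thyroid libraries Neat1 passed the filter, with a log2 fold change of 1.03 that did not pass (adjusted p = 0.171, edgeR).

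H19, the precursor of a growth-restraining microRNA, had 26 reads in all. Thyroid GFP- libraries were at 0 at 3 months, at 0, 0, 4.78 and 0 CPM at 6 months, and at 0, 37.7 and 7.68 CPM at 9 months. Thyroid GFP+ libraries were at 0, 0, 0 and 51.4 CPM, at 0, 0, 5.11 and 0 CPM, and at 46.1, 5.87 and 58.1 CPM at the same ages. The fractions overlapped at each age, and reads came from 8 of the 22 libraries. The ratio of summed reads, 19 against 7, was 3.06 (counting interval 1.23 to 8.60), and 9.26 without GFP- replicate 2 at 9 months, which held 5 of the 7 reads. The single library with most reads, GFP+ replicate 4 at 3 months, held 9, and without it the ratio was 2.01. H19 did not pass the filter. With no filter its log2 fold change in the mean over ages was 1.535 and did not pass (adjusted p = 0.473, edgeR).

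Malat1 was the abundant member, at 0.772 to 5.86% of the reads in genes of every library. In thyroid GFP- cells it took 2.65, 2.92, 3.02 and 4.10% at 3 months, 2.04, 2.68, 3.24 and 3.50% at 6 months, and 1.44, 3.37 and 2.28% at 9 months. In GFP+ cells it took 3.59, 1.59, 3.71 and 2.79%, then 3.82, 3.26, 5.86 and 3.16%, then 2.62, 2.77 and 3.35% at the same ages. The fractions overlapped at each age; the highest share, 5.86%, was GFP+ replicate 3 at 6 months, the deepest GFP+ library. Pooled shares at 6 months were 4.82% in GFP+ and 3.21% in GFP-, a ratio of 1.499 whose counting interval (1.46 to 1.53) leaves out the spread between libraries.

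Fitted differences of Malat1 between thyroid fractions were -1.04 (SE 0.76, adjusted p = 0.477), 0.15 (SE 0.76, adjusted p = 0.964) and 0.30 (SE 0.87, adjusted p = 0.996) at 3, 6 and 9 months, by edgeR. None passed, and the 95% interval of the mean over ages allows a change of up to -1.10 or 0.71 on the log2 scale. The sign of the mean depended on scaling: it was -0.20 with TMM factors, 0.19 with DESeq2 size factors and 0.23 with library size alone. Scaling moved the median of all genes alongside, from -0.08 to 0.22 and 0.21, so that relative to it Malat1 was at -0.11, -0.04 and 0.02. The same shifts left Meg3 at 2.58, 2.57 and 2.60 and Kcnq1ot1 at 1.92, 1.97 and 1.97 above the median. After TMM scaling Malat1 varied more between libraries of a group than most genes. Its fitted biological coefficient of variation was 0.595 against a median of 0.428, above 96.5% of genes tested. The TMM factors ran from 0.574 to 10.7 over the thyroid libraries. In CPM, without these factors, its coefficient of variation was 0.133 (GFP+ at 9 months) to 0.408 (GFP- at 9 months) within thyroid groups. Across ages Malat1 did not pass in either fraction (adjusted p = 0.9999 in GFP+ and 0.995 in GFP-).

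**Figure D3:**
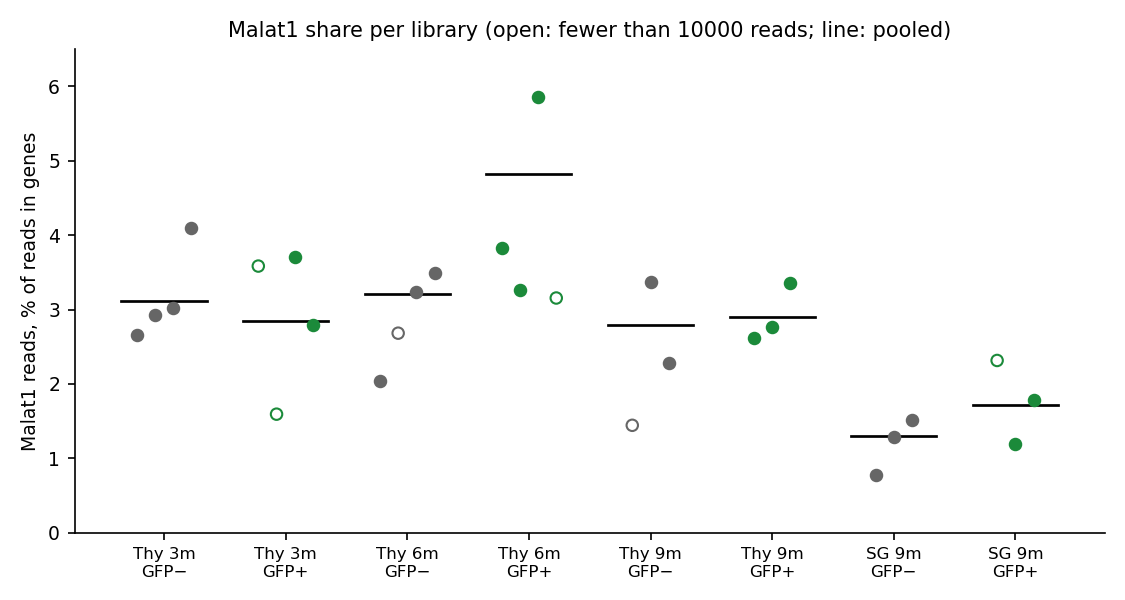
Malat1 reads as a percentage of all reads in genes (vertical axis, from 0) in each of the 28 libraries by group, with black lines for the pooled share of a group and open points for libraries of fewer than 10000 reads. Thyroid libraries lie between 1.44 and 5.86%, salivary libraries between 0.772 and 2.32%, and GFP+ and GFP- points overlap in every thyroid age.

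In salivary gland the members other than Malat1 had few reads. Meg3 had 1 read in GFP- (13.1, 0 and 0 CPM) and 2 in GFP+ (0, 169.6 and 0 CPM). Kcnq1ot1 was at 26.1, 111 and 37.1 CPM in GFP- and at 0 in all 3 GFP+ libraries, which allows up to 32.6 CPM pooled. Set at that limit, the salivary GFP+ level would be 1.32-fold lower than the pooled GFP- level. The exact 95% counting intervals overlapped, at 23.0 to 73.8 CPM in GFP- and up to 40.1 CPM in GFP+. Counting alone thus does not separate the 2 fractions. Kcnq1ot1 did not pass the filter of the fit at 9 months; with all 28 libraries in 1 fit the salivary difference of GFP+ over GFP- did not pass (adjusted p = 0.2435, edgeR), nor did the difference of the fraction effect between glands (adjusted p = 0.306). With no filter neither passed (adjusted p = 0.9284 and 0.9998, edgeR). Against thyroid GFP+ cells of the same age the salivary GFP+ level, set at 3 reads, was 4.10-fold lower. That figure leaves out the counting error of the thyroid reads, whose pooled level was 134 CPM (counting interval 96.8 to 180). This gland difference did not pass with all 28 libraries in 1 fit (adjusted p = 0.0572, edgeR) or with no filter (adjusted p = 0.3414, edgeR). Of the 92013 reads in genes of salivary GFP+ libraries, 79225 were from replicate 3. The GFP- levels had a thyroid-over-salivary ratio of 1.98 (counting interval 0.96 to 4.26). Neat1 was at 52.2, 0 and 68.9 CPM in GFP- and at 0, 0 and 88.4 CPM in GFP+, and its pooled levels overlapped those of the thyroid within counting error. H19 had 0 reads in all 6 libraries, a limit of 9.96 CPM for the pooled GFP- libraries and of 32.6 CPM for the GFP+ ones.

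Malat1 took 0.772, 1.29 and 1.52% of reads in salivary GFP- cells and 2.32, 1.19 and 1.78% in GFP+ cells. At 9 months every thyroid GFP+ library was above every salivary GFP+ one, and the pooled shares had ratios of 1.69 (GFP+) and 2.15 (GFP-). The TMM-scaled fit gave the opposite sign, -0.58 (SE 1.33, adjusted p = 0.806) in GFP+ and -0.83 (SE 1.34, adjusted p = 0.806) in GFP-. With library size alone the values were 0.75 and 0.99, and with DESeq2 size factors 1.19 and 0.67, none past the threshold, so no direction can be given between glands. The median of all genes shifted in the same way, from 1.15 (TMM) to 2.81 and 2.86 in GFP+; genes of the salivary acinar list together held 81428 to 203463 CPM in salivary GFP- libraries and 2014 to 48937 CPM in GFP+. Their part in the result was not tested.

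Meg3 had a fitted thyroid-over-salivary difference of 1.45 (SE 1.14, adjusted p = 0.389) in GFP+ and 1.70 (SE 1.46, adjusted p = 0.532) in GFP-. Between salivary fractions Meg3 had 2.44 (SE 1.90, adjusted p = 0.678) and Malat1 -0.08 (SE 1.33, adjusted p = 1), all by edgeR over 974 genes. The difference of the fraction effect between glands was -0.25 (SE 1.43) for Meg3 and 0.24 (SE 1.88) for Malat1, with adjusted p = 0.9998 for each. Thus 0 of 2 members tested passed in each of these 4 comparisons, 0 at an unadjusted p under 0.05 and 0 by DESeq2. Of all genes, 14.4% passed between glands in GFP+, 14.2% in GFP-, and 0% between salivary fractions or in the difference between glands. Between glands 326 of the 974 genes in GFP+ and 236 in GFP- had an unadjusted p under 0.05, and DESeq2 called 562 and 363. Between salivary fractions and in the difference between glands 96 and 86 genes had an unadjusted p under 0.05, and DESeq2 called 0. With DESeq2 size factors in edgeR the Meg3 gland differences did pass, at 2.99 in GFP+ (adjusted p = 0.0125) and 2.86 in GFP- (adjusted p = 0.0476), beside medians of all genes of 2.81 and 1.60. Relative to these medians Meg3 was at 0.18 and 1.26, against 0.31 and 1.53 with TMM.

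**Figure D4:**
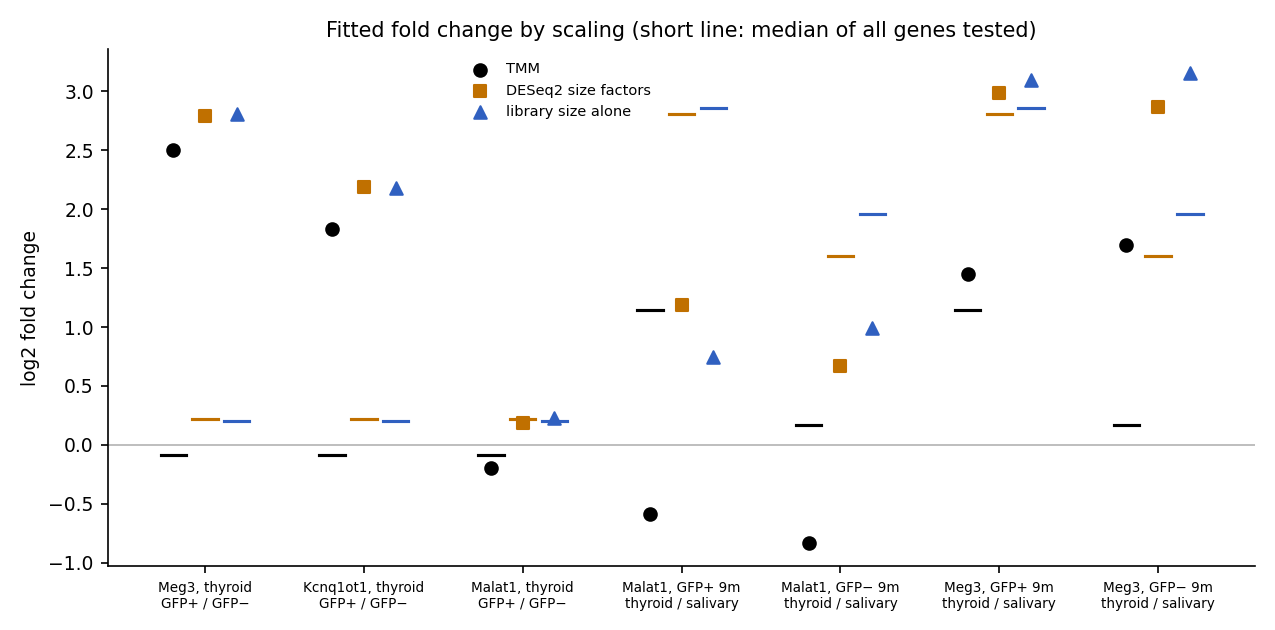
Fitted log2 fold change (vertical axis) of Meg3, Kcnq1ot1 and Malat1 between thyroid fractions and between glands under 3 scalings (circle TMM, square DESeq2 size factors, triangle library size alone), with short lines for the median of all genes tested. Malat1 lies below 0 with TMM and above 0 with the other scalings in all 3 contrasts shown, while the Meg3 and Kcnq1ot1 points shown lie above 0.

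The imprinted neighbours of the members were read from lists of their domains. Of 6 genes of the Dlk1-Meg3 domain none passed the filter. Rian, a maternally expressed noncoding RNA lying beyond Meg3, had 53 reads in 8 of 11 GFP+ libraries and 6 reads in 2 of 11 GFP- libraries, a ratio of 9.95 (counting interval 4.28 to 28.3). Without GFP- replicate 3 at 9 months the ratio was 25.9. It was at 54.7, 44.8 and 80.9 pooled CPM in GFP+ at 3, 6 and 9 months, and had 0, 0 and 6 reads in GFP-. Dlk1, the paternally expressed gene of the domain, had 4 reads in GFP+ and 3 in GFP-. Igf2, the growth factor gene beside H19, had 53 reads in GFP+ and 8 in GFP-, a ratio of 7.46 (3.52 to 18.2), and reads in 8 of 11 GFP+ libraries where H19 had them in 5 of 11.

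Of 10 genes of the Kcnq1 domain 2 were tested and 0 passed (edgeR; 0 at an unadjusted p under 0.05, 0 by DESeq2). Cd81, the one with most reads, had a log2 fold change of -0.59 (SE 0.37, adjusted p = 0.308). Cdkn1c, a growth-restraining cell cycle inhibitor gene of the domain, was not tested; it had 54 reads in GFP+ and 35 in GFP-, a ratio of 1.74 (counting interval 1.115 to 2.74), and is named after its values were seen. Of 28 imprinted genes of other domains 5 were tested, 1 higher and 1 lower. Nnat, a paternally expressed gene of neuroendocrine cells, fell by 5.17 (SE 0.57, adjusted p = 4.80e-17, edgeR), and Dcn, which is also on the fibroblast list, rose by 1.85 (SE 0.49, adjusted p = 0.00146). Dcn no longer passed with no filter (1.96) or with a replicate block (1.63).

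Genes for the protein partners of Neat1 and Malat1 were tested in the same fit. Of 15 paraspeckle proteins 5 were tested and 0 passed by edgeR (0 at an unadjusted p under 0.05, 1 by DESeq2), with a median of 0.02 beside -0.08 over all genes. Of 15 nuclear speckle genes 12 were tested and 0 passed (0 unadjusted, 0 by DESeq2), with a median of -0.18. Son, a speckle core protein, was at -0.08 (SE 0.37, adjusted p = 0.946), and at 0.29 by DESeq2 and 0.25 with library size alone. Of 33 other named long noncoding RNAs 5 were tested and 0 passed (0 unadjusted, 0 by DESeq2), with a median of -0.06; Gas5, a host of small nucleolar RNAs, was at 0.35 (SE 0.38, adjusted p = 0.653). Of all genes annotated as long intergenic or antisense RNA, members left out, 7 were tested and 0 were called, with a median of -0.26.

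In the mean over the 3 ages, markers of connective tissue moved between the fractions together with Meg3 and Kcnq1ot1. Counts and fold changes here are of that mean unless an age is named. Of 15 fibroblast genes 14 were higher in GFP+ cells, and the list's median was 1.94. Bgn, a small matrix proteoglycan, rose by 3.08 (SE 0.45), Fbn1 (fibrillin 1) by 2.55 (SE 0.41), Col1a1 (collagen 1) by 2.46 (SE 0.40) and Dpt (dermatopontin) by 2.22 (SE 0.41). Their summed level was 2296 to 11474 CPM in thyroid GFP- libraries and from 0 to 23772 CPM in GFP+ libraries, the 0 being the library of 507 reads. Of 8 pericyte and smooth muscle genes 5 were tested and 3 were higher, of which Abcc9 (1.72) no longer passed with a replicate block (1.24, adjusted p = 0.143). Of 10 endothelial genes 9 were tested and 8 were lower, among them Esm1 (-6.72, SE 0.62) and Kdr (-4.85, SE 0.52), a receptor of vascular growth factor. Of the lists for other cells, 3 of 5 thyrocyte genes tested, 3 of 3 C cell genes, 3 of 3 parathyroid genes and 4 of 4 red cell genes were lower. Of 11 immune genes none passed the filter, and Ptprc, C1qc, Cd3e, Cd79a and Tyrobp had 0 reads. Within single ages, 10, 9 and 0 of the 15 fibroblast genes passed at 3, 6 and 9 months (edgeR). Of the 5 pericyte and smooth muscle genes tested 2, 3 and 0 did, and of all genes 9.74, 7.11 and 1.89%. At 9 months 5 of the 15 fibroblast genes had an unadjusted p under 0.05, and DESeq2 called 1. In salivary gland the fibroblast genes summed to 0 to 933 CPM. The part of these cells in the Meg3 and Kcnq1ot1 results was not tested.

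Per 1000 reads of the 15 fibroblast genes, thyroid GFP+ libraries together held 8.66 reads of Meg3 and GFP- libraries 5.38. The same quantity was 6.28 against 6.58 for Kcnq1ot1, 4.88 against 6.58 for Neat1 and 1.16 against 1.39 for H19. For Malat1 it was 1967 against 6050. By age, Meg3 had 5.80, 7.80 and 11.1 reads per 1000 in GFP+ and 10.2, 2.03 and 4.13 in GFP-. Kcnq1ot1 had 5.01, 6.95 and 6.42 in GFP+ and 2.92, 6.08 and 8.64 in GFP-. GFP- was thus the higher fraction for Meg3 at 3 months and for Kcnq1ot1 at 9 months. The GFP- values of Kcnq1ot1 rest on 4, 6 and 23 reads. These ratios carry no test. In the salivary gland GFP- libraries Kcnq1ot1 had 13 reads beside only 90 fibroblast-list reads, or 144 per 1000.

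**Figure D5:**
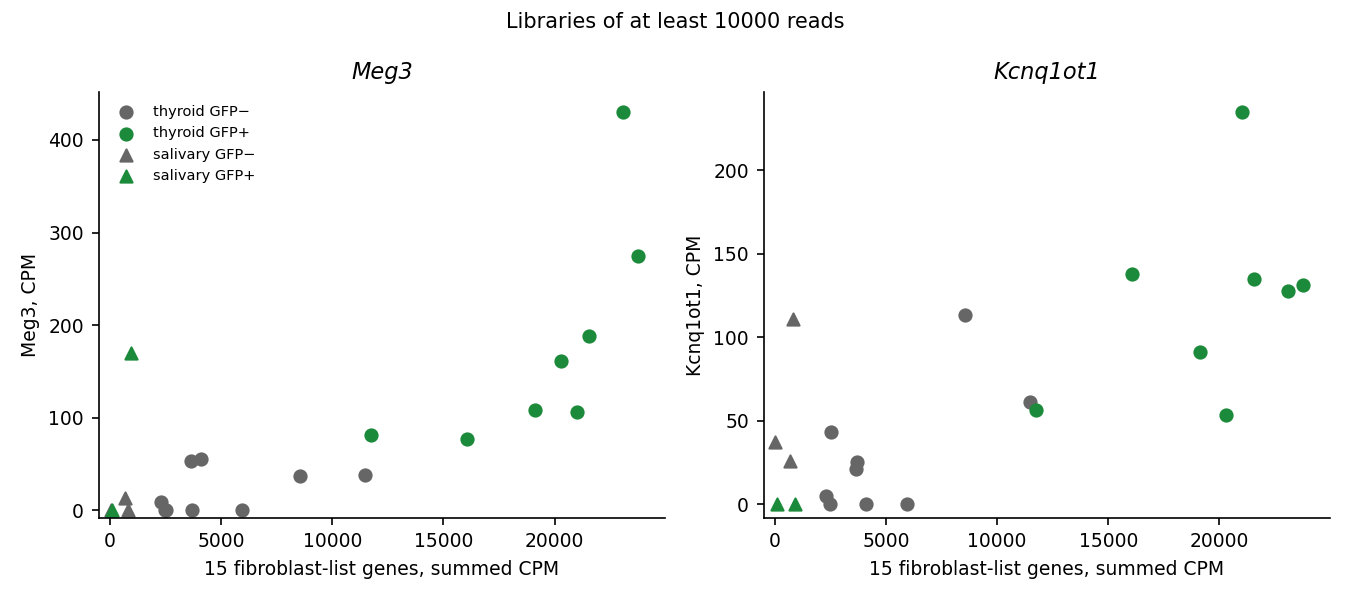
CPM of Meg3 (left) and Kcnq1ot1 (right) on the vertical axis against the summed CPM of the 15 fibroblast-list genes (horizontal axis) in the libraries of at least 10000 reads, circles for thyroid and triangles for salivary gland, green GFP+ and grey GFP-. For Meg3 all 8 thyroid GFP+ circles lie above the 9 GFP- circles, for Kcnq1ot1 5 of 8 do and the fractions overlap, and 3 salivary GFP- triangles carry Kcnq1ot1 at under 1000 CPM of the list.

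Genes with the most similar pattern to each member were sought over the 17 thyroid libraries of at least 10000 reads, by Pearson's r of log2 CPM among 1872 genes. The 5 most like Meg3 were Inmt (0.93), Penk (0.90), Scara5 (0.90), Adamts5 (0.90) and Scn7a (0.90). For Kcnq1ot1 they were Fbln7 (0.93), Rbms3 (0.89), Dst (0.88), Antxr2 (0.88) and Col6a2 (0.86). For Malat1 they were Zranb2 (0.75), Tuba4a (0.75), Clu (0.72), Tomm7 (0.70) and Sparcl1 (0.69). Meg3 and Kcnq1ot1 had r = 0.66 with each other over the 17 libraries, and -0.04 once group means were removed. These values describe libraries that share fraction, age and depth, and low counts take few distinct values.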

How the data were processed

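RNA of 28 sorted-cell libraries was isolated with DNase I treatment and made into 3' mRNA libraries, per the labels' protocols. The authors deposited whole-number read counts per Ensembl gene and library. The submitters' processing notes name bcl2fastq and the mm9 build; aligner, counting tool and strand use are not given in the sources used here. The 5 summary rows were left out, and CPM was taken over reads in genes. Of 47643 identifiers 47224 matched a mouse symbol. The members and all gene lists were chosen with earlier results of these data known.

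Genes were tested with edgeR 4.0.16 in R 4.3.3 (robust quasi-likelihood, filterByExpr by group with a minimum count of 10, TMM factors, Benjamini-Hochberg threshold 0.05), in 1 fit of 22 thyroid libraries (1900 genes) and 1 of 12 libraries at 9 months (974 genes). Ratios of summed reads carry exact 95% intervals, and a count of 0 a limit of 3 reads. Named genes are, per list, up to 4 of those called, or the one with most reads. One such gene and one transcript stretch are not reported here. Likeness used log2 CPM with a prior count of 2. Alternatives were DESeq2 1.42.0, its size factors, library size alone, other filters, a replicate block, and leaving out libraries or ribosomal RNA rows. Reads in genes numbered 507 to 209091 per library. No 2 libraries of a group were identical. Promoters came from RefSeq (GRCm38.p6) and transcripts from GENCODE vM21; coordinates of other builds were not mixed with the counts.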

Additional observations from a re-analysis of the deposited data

Results flagged for a closer look

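In 6 of 20 groups of 4 libraries, 1 library stood apart from the other 3 by Dixon's criterion, which chance meets in about 1 of 20 groups. Groups in which the other libraries are at 0 meet it whenever 1 library has a read. In thyroid GFP- cells at 6 months, Meg3 was at 9.57 CPM (2 reads) in replicate 3 and H19 at 4.78 CPM (1 read) in the same library, with the other libraries at 0. In that group Kcnq1ot1 was at 43.3 CPM (5 reads) in replicate 4, the next library being at 4.78 CPM. In thyroid GFP+ cells at 3 months, replicate 4 alone had reads of Neat1 (62.9 CPM, 11 reads) and H19 (51.4 CPM, 9 reads); it had 174957 reads in genes, the most of its group. In GFP+ cells at 6 months H19 was at 5.11 CPM (1 read) in replicate 3 and at 0 in the others.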

How the results depend on the processing

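In the mean over ages the calls of Meg3 (2.39 to 2.81) and Kcnq1ot1 (1.79 to 2.36) held under the 8 alternatives that tested them, and without any 1 library (Meg3 2.25 to 3.28, Kcnq1ot1 1.59 to 2.46). The stricter filter left both untested and called 89 genes in place of 383. Changes of side or sign follow, and the cause was not tested.

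Meg3 at 6 months no longer passed by DESeq2 (4.08, adjusted p = 0.0593) or with no filter (4.15, adjusted p = 0.0797). Kcnq1ot1 passed at 3 months with DESeq2 size factors (3.17) and library size alone (3.00), and at 6 months with the same scalings (2.50 and 2.83) and without any of 3 libraries (GFP- replicate 4, GFP+ replicates 3 and 4; range over 8 libraries 1.82 to 4.26). Meg3 between glands passed with DESeq2 size factors (2.99 in GFP+, 2.86 in GFP-) and library size alone (3.09 and 3.16).

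Malat1, never called, changed sign in the mean over ages by DESeq2 (0.19), with its size factors (0.19) and with library size alone (0.23), and ranged from -0.38 to 0.0085 without single libraries. At 3 months it was at 0.088 by DESeq2 and 0.089 with its size factors. At 6 months it was at -0.21 with the stricter filter and -0.019 with the replicate block, ranging from -0.41 to 0.53 without single libraries. At 9 months it was at -0.077 without the shallow libraries, ranging from -0.11 to 0.88. Between glands it was at 1.18 (DESeq2), 1.19 (size factors), 0.51 (no filter) and 0.75 (library size alone) in GFP+, ranging from -0.91 to 1.36, and at 0.67 (DESeq2), 0.67 (size factors) and 0.99 (library size alone) in GFP-. Between salivary fractions it was at 0.11 (stricter filter), 0.37 (only the groups compared), 0.39 (without shallow libraries) and 0.54 (library size alone), ranging from -1.93 to 0.36. The difference between glands was -0.56 for Malat1 without shallow libraries and -0.24 with library size alone, ranging from -0.14 to 2.14. For Meg3 it was 0.12 (size factors), 0.43 (no filter), 0.45 (all 28 libraries in 1 fit) and 0.48 (replicate block), ranging from -2.90 to 5.07, and Meg3 between salivary fractions ranged from -2.86 to 5.11, negative without GFP+ replicate 2. Son was at 0.29 (DESeq2), 0.28 (size factors) and 0.25 (library size alone), ranging from -0.22 to 0.079. The ratio of H19 reads ranged from 2.01 to 9.26, that of Neat1 from 2.28 to 2.96, that of Rian from 7.68 to 25.9 and that of Igf2 from 6.23 to 9.01.

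Whether replicate numbers pair the fractions was not settled. In the thyroid fit 3 of 11 same-numbered pairs had a correlation over 0.1 (-0.089 to 0.351), shallow libraries included. In the fit at 9 months 4 of 6 did (0.030 to 0.186), with 2 of the 3 salivary pairs among them. The main fits did not use pairing. With the replicate block 188 genes were called in the mean over ages, Meg3 (2.39, adjusted p = 0.0030) and Kcnq1ot1 (1.97, adjusted p = 0.0183) among them, and Meg3 at 6 months did not pass (3.28, adjusted p = 0.196). Library size alone and the read ratios were added after seeing the data. The block was not run across ages or between glands within a fraction. Counts of genes called at 1 age or between glands moved by more than 1.5 times under most alternatives: at 3 months 185 became 22 with no filter, at 6 months 135 became 10 with no filter and 229 with library size alone, at 9 months 36 became 3 with no filter, and between glands in GFP+ 140 became 21 with the stricter filter and 728 with library size alone. Depth limits Neat1 and H19 most, with 137 and 26 reads in all.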
